A study of Mus musculus with 18 samples.

Results

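The 9 genes of peroxisomal fatty acid oxidation described here are *Abcd3*, *Ehhadh*, *Hsd17b4*, *Acaa1a*, *Acaa1b*, *Scp2*, *Decr2*, *Crot* and *Pex11a*. They were found on the arrays by gene name, and where several probes carried the same name the brightest probe stood for the gene. All 9 genes were measured, by 11 probes in all, out of 37074 gene names on the array. All 9 also passed the filter on dim probes, which kept 21542 gene names, and each of the 11 probes was well above background on 6 of 6 arrays in every group.

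Gene expression was measured in cells released from the ileum of 18 mice by chelation and shaking, with 1 Agilent one-colour array per mouse. There were 6 mice in each of 3 groups: chow-fed Pgc1α fl/fl mice, Pgc1α fl/fl mice fed a Western diet (WD) and WD-fed iPgc1α-/- mice. The labels write these as iPGC1afl/fl with CHOW, iPGC1afl/fl with HFD and iPGC1a-/- with HFD. WD supplied 42% of its kcal as fat, rich in saturated milk fat, with 0.2% cholesterol. The mice of all 3 groups were 8 weeks old when the diets were started, and the diets lasted 8 weeks. All mice were killed after an overnight fast, at 3 h after lights on, and the study lists them as male. Every group carried the floxed *Ppargc1a* allele, the gene of the coactivator Pgc1α, and the iPgc1α-/- mice also carried Cre recombinase under the Villin promoter, which is active in the intestinal epithelium. Other cells in the suspension therefore keep the gene. Chow-fed iPgc1α-/- mice were not analysed here, and the diet comparison exists only in Pgc1α fl/fl mice and the genotype comparison only on WD. Each of the 3 slides held 2 arrays of every group.

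Peroxisomes shorten fatty acids that mitochondria handle poorly, such as very long chain, branched and dicarboxylic ones. The acyl-CoA enters through ABC transporters, is oxidised by an acyl-CoA oxidase that gives off hydrogen peroxide, passes through a bifunctional enzyme that hydrates and dehydrogenates it, and is cut by a thiolase. Shortened chains leave as carnitine esters, and genes of the pathway are classical targets of the nuclear receptor PPARα, for which Pgc1α is a coactivator. In the ileal enterocyte the pathway lies beside the uptake and packaging of dietary fat.

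Values are log2 of the normalised median spot signal. A level is compared only between groups at the same probe, since brightness also depends on the probe. A difference is called when its adjusted p (limma, adjusted by Benjamini and Hochberg over the 32726 tested probes) is 0.05 or lower and its fold change is above 1.5, which is 0.585 on the log2 scale. Rose and fell are used for differences that passed the adjusted p, whether or not they were also above that fold change.

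The targeted gene was examined first. The brightest *Ppargc1a* probe ran from 10.104 to 11.25 in chow-fed Pgc1α fl/fl mice, from 11.26 to 11.45 in WD-fed Pgc1α fl/fl mice and from 11.36 to 12.01 in WD-fed iPgc1α-/- mice. It did not fall in the arrays with the iPgc1α-/- label (log2 fold change 0.30, adjusted p = 0.572). The other probe of the gene gave 0.36 with an adjusted p of 0.495. The array files do not place either probe by exon, so whether they lie in the deleted exons is unknown here. The probes therefore check nothing about the deletion. The paper itself reports the deletion by RT-qPCR in the intestinal tracts, with lower ileal *Tfam*, *Cyt-C* and *Atp5b* and lower enterocyte respiration. Directions by genotype below refer to the labels.

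WD was accompanied by higher expression of most steps of the pathway in Pgc1α fl/fl mice. Between WD and chow, 7 of the 9 genes rose and 0 fell at the adjusted p. Over all tested genes, 10.4% rose and 14.2% fell by that rule. *Hsd17b4*, *Acaa1b* and *Scp2* were also above the fold change threshold, so 3 of 9 were called higher against 3.22% of all genes. Among all genes 1815 were called, of which 38.2% were higher, and this share was 48.5% when the median signal was scaled to the 75th percentile instead. In 4 of 9 genes (*Acaa1a*, *Acaa1b*, *Hsd17b4* and *Scp2*) all 6 WD arrays lay above all 6 chow arrays, which held for 5.11% of all genes. The median log2 fold change of the 9 was 0.48, against 0.003 for all genes. *Decr2* and *Pex11a* did not pass. The counts describe a list put together with results of these arrays known, so they were not tested against other lists.

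**Figure D1:**
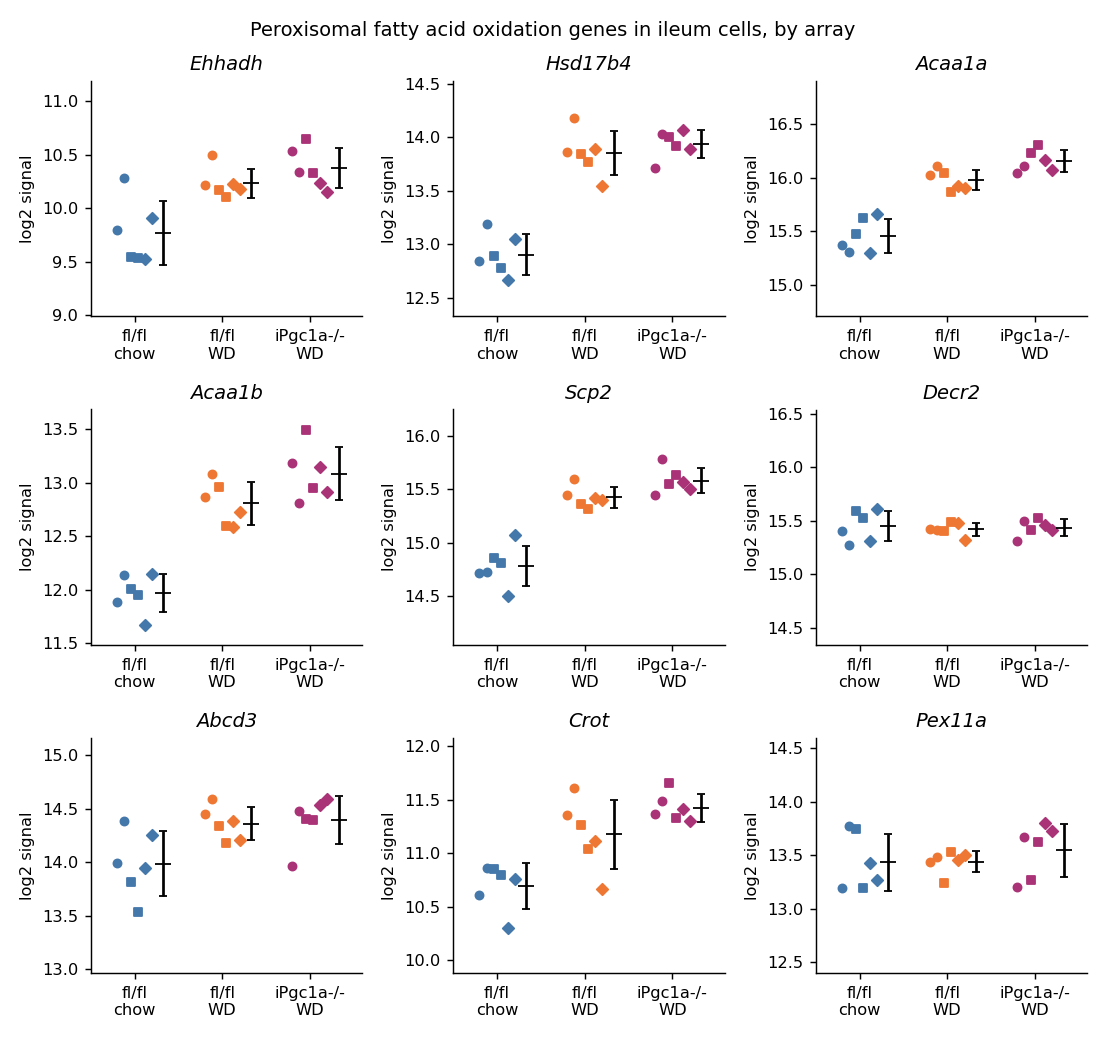
Log2 normalised signal (y axis, a span of the same width in every panel) of the 9 genes on each array, by group (x axis). Points are single mice, with the marker shape showing the slide, and the black bar is the mean with its SD (n = 6). In *Hsd17b4*, *Acaa1a*, *Acaa1b* and *Scp2* the WD groups lie wholly above chow, while *Decr2* and *Pex11a* overlap.

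Entry into the peroxisome is represented by *Abcd3*, which encodes the ABC transporter PMP70 of the peroxisomal membrane. Its probe (mm9 chr3:121461892-121461951) ran from 13.53 to 14.39 with a median of 13.97 in chow-fed Pgc1α fl/fl mice, from 14.18 to 14.59 with a median of 14.36 on WD, and from 13.96 to 14.59 with a median of 14.44 in WD-fed iPgc1α-/- mice. The chow arrays were the most spread, and their upper end overlapped the WD arrays. *Abcd3* rose with WD by 0.37 (SE 0.13, adjusted p = 0.0422), a 1.29-fold change. Its adjusted p was the highest of the 7 genes that rose. It did not pass without Pgc1α fl/fl WD replicate 2, 3, 4 or 5 (adjusted p of 0.0820, 0.0662, 0.0691 and 0.103) and without chow replicate 1, 4, 5 or 6 (0.0668, 0.0766, 0.102 and 0.0814), which are 8 of the 12 arrays compared.

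The hydratase and dehydrogenase steps are carried by a pair of bifunctional proteins. *Hsd17b4* encodes the D-bifunctional protein, which also serves branched chains and bile acid precursors. Its signal ran from 12.67 to 13.19 with a median of 12.87 on chow, from 13.55 to 14.18 with a median of 13.85 in WD-fed Pgc1α fl/fl mice, and from 13.71 to 14.06 with a median of 13.96 in WD-fed iPgc1α-/- mice. The lowest WD array lay above the highest chow array. *Hsd17b4* rose by 0.95 (SE 0.10, adjusted p = 2.16e-06), a 1.93-fold change with a 95% confidence interval of 1.66 to 2.23, the largest of the 9. *Ehhadh* encodes the L-bifunctional protein, best known for medium and dicarboxylic chains. Its probe (mm9 chr16:21761914-21761973) ran from 9.53 to 10.28 with a median of 9.67 on chow, from 10.11 to 10.50 with a median of 10.20 in WD-fed Pgc1α fl/fl mice, and from 10.15 to 10.65 with a median of 10.33 in WD-fed iPgc1α-/- mice. 1 chow mouse reached the range of the WD mice. *Ehhadh* rose by 0.47 (SE 0.12, adjusted p = 0.0075), or 1.38-fold, below the fold change needed for a call.

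Cleavage is the task of the thiolases. *Acaa1a* and *Acaa1b* are paralogues on chromosome 9 that encode 3-ketoacyl-CoA thiolases, and *Scp2* encodes sterol carrier protein x, a thiolase with a lipid transfer domain that also takes branched substrates. The *Acaa1a* signal at the brightest probe (mm9 chr9:119259353-119259412) ran from 15.30 to 15.67 with a median of 15.43 on chow, from 15.87 to 16.11 with a median of 15.98 in WD-fed Pgc1α fl/fl mice, and from 16.05 to 16.31 with a median of 16.14 in WD-fed iPgc1α-/- mice. The diet groups were apart, and *Acaa1a* rose by 0.52 (SE 0.08, adjusted p = 7.73e-05), or 1.44-fold. The other *Acaa1a* probe, whose ends lie 1221 bases apart on mm9 (chr9:119255643-119256863), rose by 0.70 (SE 0.15, adjusted p = 0.0015), or 1.63-fold. The gene is thus above the fold change threshold at its dimmer probe and below it at the brighter one.

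The *Acaa1b* signal (mm9 chr9:119057326-119057385) ran from 11.67 to 12.15 with a median of 11.98 on chow, from 12.59 to 13.08 with a median of 12.80 in WD-fed Pgc1α fl/fl mice, and from 12.81 to 13.49 with a median of 13.05 in WD-fed iPgc1α-/- mice. All WD mice lay above all chow mice. *Acaa1b* rose by 0.84 (SE 0.12, adjusted p = 3.07e-05), a 1.79-fold change (95% confidence interval 1.51 to 2.12). Signals of paralogues can mix where a probe binds both transcripts. The longest run of bases that the *Acaa1b* probe shared with either *Acaa1a* probe was 6 of 60, so the probes are directed at different stretches, but how far each binds the other transcript was not tested.

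The *Scp2* signal (mm9 chr4:107717189-107717248) ran from 14.50 to 15.07 with a median of 14.77 on chow, from 15.32 to 15.59 with a median of 15.41 in WD-fed Pgc1α fl/fl mice, and from 15.45 to 15.78 with a median of 15.56 in WD-fed iPgc1α-/- mice. The diet groups did not overlap here either. *Scp2* rose by 0.64 (SE 0.09, adjusted p = 2.09e-05), or 1.56-fold (95% confidence interval 1.38 to 1.77).

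Promoters were read from RefSeq (build GRCm38.p6, a later build than that of the probes) as windows of 300 bases, 250 before and 50 after the start of the gene. A window was found for 8 of the 9 genes, with *Abcd3* having 2, and none for *Hsd17b4*. The windows of the 3 thiolase genes, which rose together, and of *Pex11a*, which did not pass the test, are shown so that they can be set side by side. Capitals mark 3 short motifs, each searched on both strands: AGGTCA is the core site of nuclear receptors such as PPARα. GGGCGG is the GC box. CCAAT is the box of that name.
Acaa1a (chr9:119341044-119341343, plus strand): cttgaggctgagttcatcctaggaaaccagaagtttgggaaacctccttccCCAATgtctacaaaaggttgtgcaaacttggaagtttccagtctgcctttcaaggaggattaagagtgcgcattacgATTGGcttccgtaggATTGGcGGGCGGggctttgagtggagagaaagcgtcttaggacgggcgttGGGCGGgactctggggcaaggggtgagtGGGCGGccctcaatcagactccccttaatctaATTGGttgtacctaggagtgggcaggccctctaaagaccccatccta
Acaa1b (chr9:119157044-119157343, minus strand): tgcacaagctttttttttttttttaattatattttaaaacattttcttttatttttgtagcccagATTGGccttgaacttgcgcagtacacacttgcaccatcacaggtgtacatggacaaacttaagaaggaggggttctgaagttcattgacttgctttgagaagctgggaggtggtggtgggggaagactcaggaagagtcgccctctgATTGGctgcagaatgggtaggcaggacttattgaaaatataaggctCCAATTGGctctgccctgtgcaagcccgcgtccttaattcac
Scp2 (chr4:108118498-108118797, minus strand): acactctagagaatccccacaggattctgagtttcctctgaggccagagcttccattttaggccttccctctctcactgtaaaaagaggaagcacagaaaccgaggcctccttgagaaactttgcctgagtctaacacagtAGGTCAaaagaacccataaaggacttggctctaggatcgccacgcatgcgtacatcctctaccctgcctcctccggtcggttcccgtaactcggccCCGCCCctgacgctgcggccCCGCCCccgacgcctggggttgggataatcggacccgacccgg
Pex11a (chr7:79743082-79743381, minus strand): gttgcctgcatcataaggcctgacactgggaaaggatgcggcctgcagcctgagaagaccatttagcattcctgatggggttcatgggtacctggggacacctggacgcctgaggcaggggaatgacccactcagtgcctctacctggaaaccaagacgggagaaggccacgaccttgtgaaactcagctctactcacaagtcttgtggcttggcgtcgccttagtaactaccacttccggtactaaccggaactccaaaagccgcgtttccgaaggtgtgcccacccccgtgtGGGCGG

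The full direct repeat that PPARα binds with its partner RXR, AGGTCANAGGTCA on either strand, was in 0 of the 9 windows and in 0.0396% of the 32851 windows of all genes. Its looser form AGGNCANAGGNCA was also in 0 of 9, against 0.381%. The single AGGTCA was found in *Scp2* alone among the 9 windows, 109 bases upstream of the start, and in 16.3% of all windows. GC boxes were in 6 of the 9 windows (*Acaa1a*, *Crot*, *Decr2*, *Ehhadh*, *Pex11a* and *Scp2*) against 35.7% of all, and CCAAT in 4 of 9 (*Acaa1a*, *Acaa1b*, *Crot* and *Ehhadh*) against 37.4%. Of the paralogues, *Acaa1a* had 3 GC boxes and 4 CCAAT boxes, and *Acaa1b* had 4 CCAAT boxes (of which a pair overlap in CCAATTGG) and 0 GC boxes. GC content was 43.7% in *Acaa1b*, below the median of 52.7% over all windows, 53.3% in *Acaa1a* and between 57.3% and 76.3% in the other 7 windows. A match describes letters in the window, and a missing match says only that these letters are not within it.

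*Decr2* encodes the peroxisomal 2,4-dienoyl-CoA reductase, which prepares chains with double bonds for the spiral. Its probe (mm9 chr17:26218219-26218278) ran from 15.27 to 15.61 with a median of 15.47 on chow, from 15.32 to 15.49 with a median of 15.42 in WD-fed Pgc1α fl/fl mice, and from 15.31 to 15.53 with a median of 15.44 in WD-fed iPgc1α-/- mice. The 3 groups lay over each other. The diet difference was -0.03 (SE 0.07, adjusted p = 0.789), and its 95% confidence interval of 0.88-fold to 1.08-fold leaves out a change of 1.5-fold either way. Its sign turned to 0.12 and 0.079 when arrays were scaled to the 75th percentile of the background-subtracted or the median signal.

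*Crot*, carnitine O-octanoyltransferase, makes the carnitine esters in which medium chains leave the peroxisome. Its brightest probe (mm9 chr5:8966430-8966489) ran from 10.30 to 10.86 with a median of 10.78 on chow, from 10.66 to 11.61 with a median of 11.19 in WD-fed Pgc1α fl/fl mice, and from 11.30 to 11.66 with a median of 11.39 in WD-fed iPgc1α-/- mice. 1 WD mouse of the Pgc1α fl/fl group fell within the chow range. *Crot* rose by 0.48 (SE 0.13, adjusted p = 0.0102), or 1.39-fold. The other *Crot* probe, which is dimmer and lies elsewhere on mm9 (chr5:8986251-8986310), gave 0.36 (SE 0.16) and did not pass (adjusted p = 0.122).

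*Pex11a* encodes a peroxin that elongates the membrane before peroxisomes divide. Its probe (mm9 chr7:86882223-86882282) ran from 13.19 to 13.77 with a median of 13.35 on chow, from 13.24 to 13.53 with a median of 13.47 in WD-fed Pgc1α fl/fl mice, and from 13.20 to 13.80 with a median of 13.64 in WD-fed iPgc1α-/- mice. The WD arrays of Pgc1α fl/fl mice fell inside the chow range. The diet difference was 0.01 (SE 0.12, adjusted p = 0.974), with a 95% confidence interval of 0.84-fold to 1.20-fold.

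The diet difference was also read within slides. With 2 arrays per group on each slide, the diet difference of each of the 7 genes that rose was positive on all 3 slides. These 7 were picked by a difference over the same arrays, so the slides describe its spread and add no separate support. For *Hsd17b4* it lay between 0.86 and 1.004, for *Acaa1b* between 0.75 and 0.97, and for *Scp2* between 0.51 and 0.80. *Decr2* and *Pex11a* were positive on 1 slide each.

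**Figure D2:**
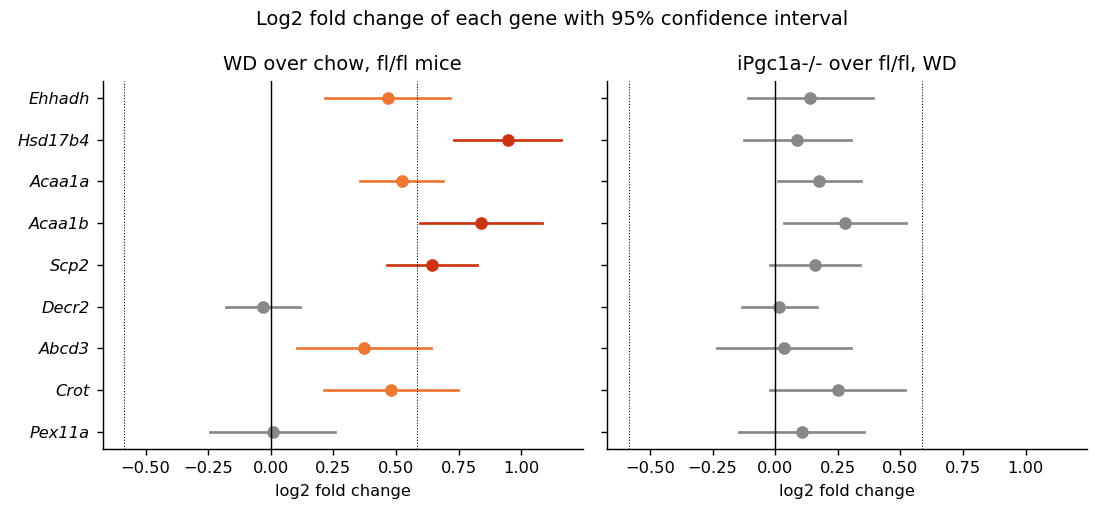
Log2 fold change (x axis) of each of the 9 genes (y axis) with its 95% confidence interval, for WD over chow in Pgc1α fl/fl mice on the left and for iPgc1α-/- over WD-fed Pgc1α fl/fl mice on the right. Red points were called, orange points passed the adjusted p alone, grey points did not pass, and dotted lines mark a 1.5-fold change. On the left 7 points passed, and on the right none did.

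The genotype comparison asked whether the same genes differed between iPgc1α-/- and WD-fed Pgc1α fl/fl mice. With limma, 0 of the 9 genes passed the adjusted p (lowest 0.475), and 2 had an unadjusted p under 0.05 and were higher, a share met by 4.38% of all genes. Of all genes, 0.065% were higher and 0.162% lower by the adjusted p. With the fold change threshold 29 genes were called, of which 44.8% were higher, against 33.3% when the background-subtracted signal was scaled to the 75th percentile. *Acaa1b* differed by 0.28 (SE 0.12, adjusted p = 0.475) and *Acaa1a* by 0.18 (SE 0.08, adjusted p = 0.505), the 2 with an unadjusted p under 0.05. All 9 point estimates were above 0, between 0.02 and 0.28 with a median of 0.14, whereas 51.9% of all genes had a positive difference. Scaling to the 75th percentile turned the sign of *Abcd3* and *Decr2*, and the 9 estimates share the same 12 arrays.

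With no array left out and at the brightest probes, all 9 of the 95% confidence intervals of the genotype difference lay within a 1.5-fold change in either direction. They ran from -0.23 at the lowest end (*Abcd3*) to 0.52 at the highest (*Acaa1b*). Those of the other *Crot* probe (0.34, interval -0.0050 to 0.68) and the other *Acaa1a* probe (0.29, -0.0087 to 0.60) reached 1.60-fold and 1.51-fold. At its brightest probe *Crot* differed by 0.25 (interval -0.02 to 0.52), *Scp2* by 0.16 (-0.02 to 0.34), *Ehhadh* by 0.14 (-0.11 to 0.39) and *Hsd17b4* by 0.09 (-0.13 to 0.30). *Pex11a*, *Abcd3* and *Decr2* differed by 0.10, 0.03 and 0.02. With 1 array left out at a time, *Crot* ranged from 0.14 to 0.35, *Scp2* from 0.10 to 0.20, *Ehhadh* from 0.087 to 0.20 and *Hsd17b4* from 0.024 to 0.16. *Acaa1b* ranged from 0.20 to 0.34 and *Acaa1a* from 0.14 to 0.21, and none of these genes passed the adjusted p. The highest *Crot* and *Acaa1b* values came without Pgc1α fl/fl WD replicate 5 (SE 0.12 for each). Intervals are not given for these fits. Both comparisons share the Pgc1α fl/fl arrays on WD, so a high or low value there moves the estimates in opposite directions.

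Most pairs of the 9 genes correlated positively among mice of the same group. With the group means taken out, 29 of the 36 pairs correlated positively over the 18 arrays, with a median r of 0.34. *Hsd17b4* went most closely with *Crot* (r = 0.78) and *Abcd3* (r = 0.76), and *Acaa1a* with *Scp2* (r = 0.69). *Decr2*, whose diet difference was near 0, followed *Scp2* (r = 0.67) and *Acaa1a* (r = 0.66) among mice but ran against *Ehhadh* (r = -0.37), the lowest value. *Pex11a* was positive with *Abcd3* (r = 0.46) and slightly negative with both *Acaa1* paralogues (r = -0.28 and -0.27). The points share array, labelling and normalisation, and these values are a description without a test. The share of positive pairs among all tested genes was not computed, so the count is not read as particular to these genes.

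**Figure D3:**
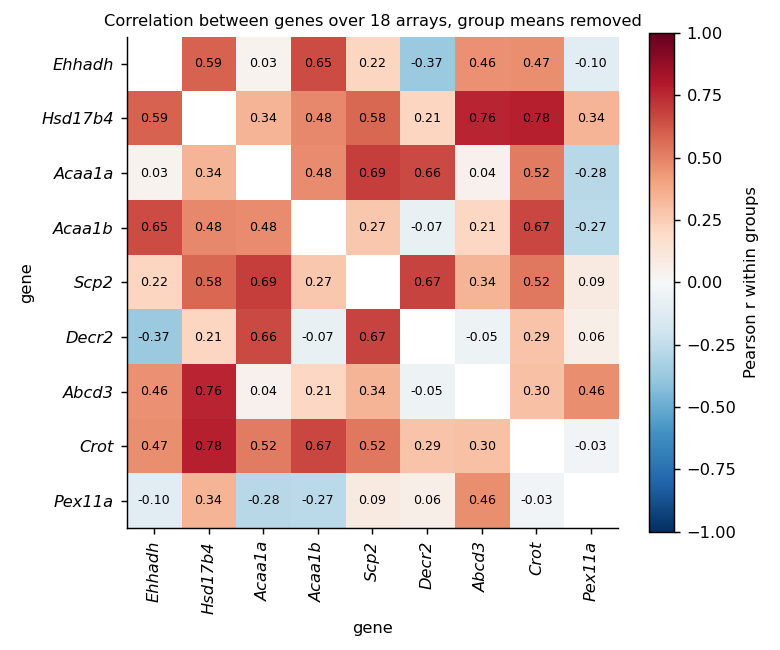
Pearson r between each pair of the 9 genes (both axes) over 18 arrays after the mean of each group was removed, with red for positive and blue for negative values. *Hsd17b4* is positive with all 8 others, while every negative cell involves *Pex11a* or *Decr2*.

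Over the 9 genes, the mean z score per array (each gene centred and scaled over the 18 arrays) was -0.90 ± 0.44 (SD, n = 6) on chow, 0.25 ± 0.32 in WD-fed Pgc1α fl/fl mice and 0.64 ± 0.29 in WD-fed iPgc1α-/- mice. Outside the list, the pattern most like it was that of *Hsd17b11*, which encodes a lipid droplet dehydrogenase (r = 0.97 over 18 arrays, 0.89 with group means removed). Next came *Aldh3a2*, a fatty aldehyde dehydrogenase (0.97 and 0.84), *Hsd3b3*, a hydroxysteroid dehydrogenase (0.97 and 0.88), *Pank3*, a pantothenate kinase of coenzyme A synthesis (0.96 and 0.67), and *Cat*, the catalase that breaks down the hydrogen peroxide made by peroxisomal oxidases (0.96 and 0.81). These 5 were picked for their likeness among all other tested genes, and no test applies to them.

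Other peroxisomal genes of lipid oxidation rose in number with WD. Of 27 such genes, 26 were tested (*Abcd2* was too dim), 18 rose against 10.4% of all genes, and 0 fell against 14.2%. The 26 had a median log2 fold change of 0.40, and 6 were called, all higher, against 3.22% of all genes. *Acox2*, the oxidase for branched chains and bile acid precursors, went from a mean of 9.36 on chow to 11.26 on WD, a rise of 1.90 (SE 0.18, adjusted p = 3.89e-07), or 3.73-fold. *Crat*, carnitine acetyltransferase, rose by 1.13 (adjusted p = 5.53e-05) and *Cat* by 0.94 (adjusted p = 5.07e-05). *Slc27a2*, a very long chain acyl-CoA synthetase, rose by 0.74 and *Nudt7*, a hydrolase of coenzyme A, by 0.66.

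Genes that build and divide peroxisomes were taken as a further list. Of 18 peroxins and fission factors, 4 rose, 1 fell and 0 were called, with a median of 0.18. The 4 were *Pex11g* (0.40), a relative of *Pex11a*, *Pex19* (0.36), a chaperone of membrane proteins, *Pex5* (0.36), the import receptor, and *Pex13* (0.35), a part of the docking complex. *Pex26*, which anchors the ATPases that recycle the import receptor, fell by 0.34. Of 4 genes of ether lipid synthesis, 0 rose and 2 fell: *Agps*, an alkyl transferase, by 0.29, and *Far1*, a fatty acyl-CoA reductase, by 1.01 on the log2 scale at a dim probe with group means of 6.20 on chow and 5.19 on WD. Taking these 3 lists as 48 tested genes, 22 rose and 3 fell at the adjusted p, against the 10.4% and 14.2% of all genes.

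**Figure D4:**
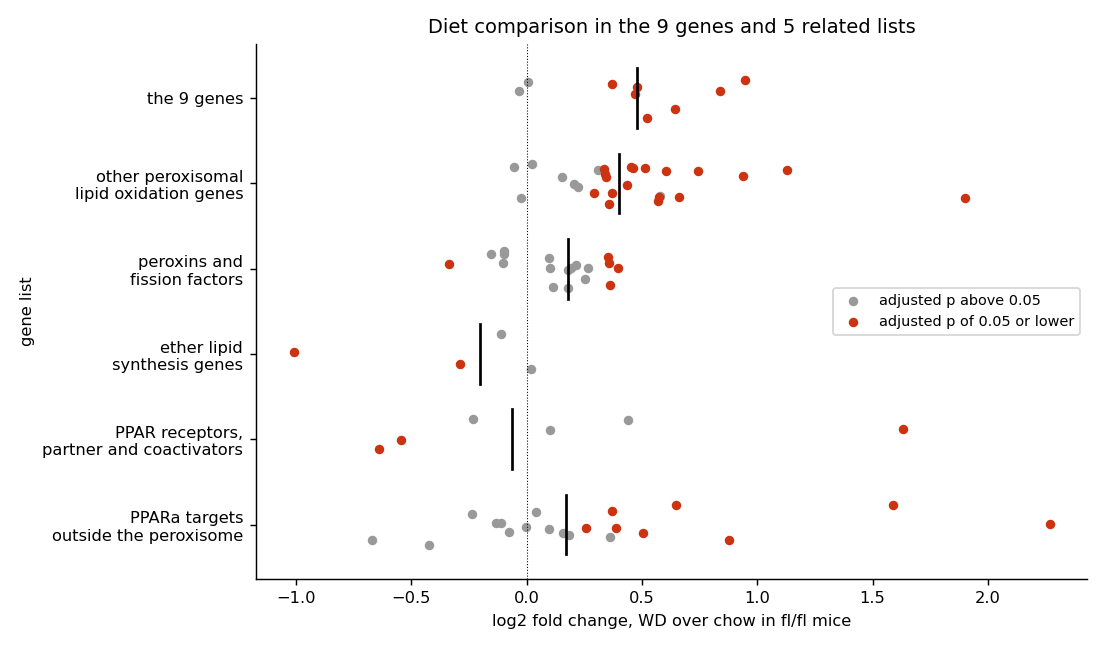
Log2 fold change of WD over chow in Pgc1α fl/fl mice (x axis) for the 9 genes and for every tested gene of 5 related lists (y axis, with points spread vertically to keep them apart). Red points passed the adjusted p, grey points did not, and the black bar is the median of the list. The medians of the 9 genes (0.48) and of other peroxisomal lipid oxidation genes (0.40) stand to the right of those of the other lists.

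Among the receptors, *Ppara* itself, which encodes PPARα, rose by 1.63 (SE 0.11, adjusted p = 7.81e-09), from 11.38 to 13.00, or 3.09-fold. *Pparg*, the receptor of fat storage, fell by 0.64 and *Ppargc1b*, which encodes the related coactivator Pgc1β, fell by 0.54. *Ppard* (-0.23, adjusted p = 0.251) and *Rxra*, the partner of the PPARs (0.10, adjusted p = 0.327), did not pass. *Ppargc1a* differed by 0.44 at its brightest probe (adjusted p = 0.0556), where its 6 WD arrays all lay above the 6 chow arrays, and by 0.51 at its other probe, which passed (adjusted p = 0.0273). Of 21 PPARα targets outside the peroxisome, 20 were tested. Their median was 0.17, 0 fell against 14.2% of all genes, and 8 rose against 10.4%. The 8 included *Pdk4*, a kinase that restrains pyruvate oxidation (2.27, adjusted p = 7.74e-06), *Cyp4a10*, a fatty acid hydroxylase (1.59), and *Fabp1*, a fatty acid binding protein (0.88). Also among them were *Plin2*, a coat protein of lipid droplets (0.65), and *Creb3l3*, a transcription factor of lipid metabolism that also marks the villus tip (0.50). Between genotypes, limma passed 0 genes of any of these 5 lists at the adjusted p. Among the 48 peroxisomal ones 5 had an unadjusted p under 0.05, of which 3 were higher (*Acox2*, *Cat* and *Pex6*) and 2 lower (*Nudt19* and *Mff*), against 4.38% and 4.92% of all genes. These 5 are named after their values were seen. The largest difference between genotypes was that of *Cyp4a10* (1.61, adjusted p = 0.0894). By RT-qPCR, the paper reports lower intestinal expression of PPARα-regulated fatty acid oxidation genes in iPgc1α-/- mice. On the arrays the 20 tested PPARα targets outside the peroxisome had a median genotype difference of 0.02, with 10 above 0. Why the methods differ was not tested.

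Markers of several cell types also differed with diet. In RNA from mixed cells, fewer cells of a type and less RNA per cell cannot be told apart. Of 9 enterocyte markers, 4 rose (*Alpi*, *Apoa4*, *Apob* and *Lct*) and 1 fell (*Slc10a2*), and their summed normalised signal was between 475797 and 632010 on chow and between 590798 and 729097 on WD. *Vil1*, a structural marker of the brush border, differed by 0.20 (adjusted p = 0.0947), and *Fabp6*, a marker of ileal enterocytes that was bright in all groups, by -0.11 (adjusted p = 0.757). Of 6 markers of T and intraepithelial lymphocytes, 5 fell (all but *Ptprc*), with sums of 14215 to 46954 on chow and 6772 to 10899 on WD. All 5 goblet cell markers and all 4 B and plasma cell markers fell, with sums of 374524 to 487016 against 156898 to 407990 and of 319 to 1589 against 139 to 535. Of 4 villus tip markers 1 rose and 2 fell, and of 7 crypt and cycling markers and 3 tested macrophage and dendritic cell markers 2 fell in each. Paneth (4 tested), enteroendocrine (4) and tuft cell (3 tested) markers had 1 that fell each. Over all tested genes 10.4% rose and 14.2% fell, so 1 or 2 that fell in lists this short say little about a cell type. Of the stroma and muscle markers 0 of 5 tested passed, *Col1a1* and *Pdgfra* being too dim to test. The part of these shifts in the rise of 7 of the 9 genes was not tested. Between genotypes limma passed 0 markers of any of these lists.

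**Figure D5:**
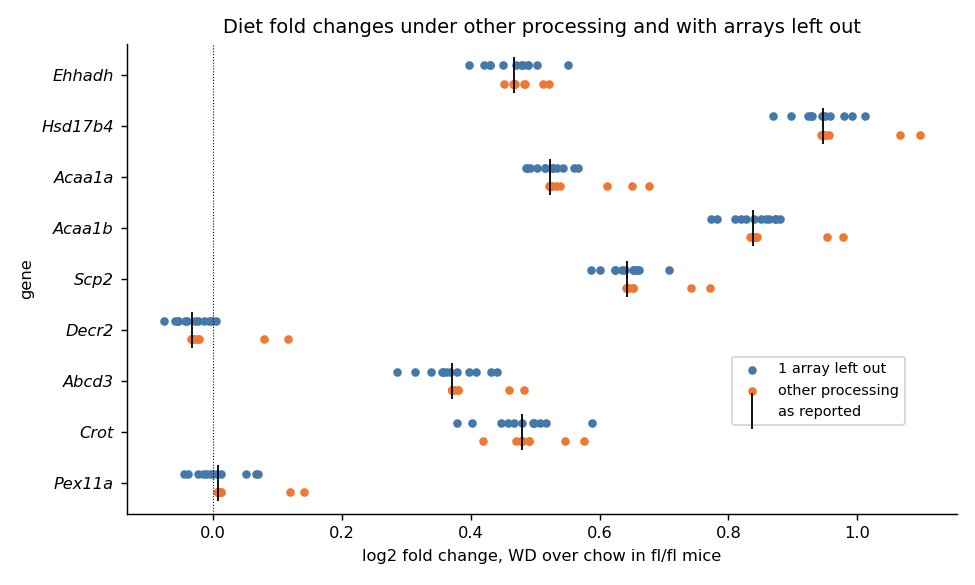
Log2 fold change of WD over chow in Pgc1α fl/fl mice (x axis) of each of the 9 genes (y axis) as reported (black line), with each of 12 arrays left out in turn (blue) and under 13 other ways of processing (orange). The 7 genes that rose stay to the right of 0 throughout, and *Decr2* and *Pex11a* lie on both sides of it. Blocks, other thresholds and only the groups compared leave the estimate as reported, so those orange points could not move.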

How the data were processed

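The authors deposited, for each of the 18 one-colour arrays analysed here, the spot intensity values of Agilent Feature Extraction 10.10.1.1 (per the file headers, mm9 coordinates), without normalisation between arrays, and a table of log2 values for 33095 probes. Their methods describe a correction for washing bath and labelling serial, which the labels used here do not name, so it was not repeated from the scanner files. Every column of values had a sample.

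Controls were dropped, as were spots marked as outliers (46 to 153 per array), and repeated spots of a probe were averaged. A probe was tested if it stood well above background in 5 or more of the 6 arrays of some group. Its log2 median signal was normalised by a reimplemented qsmooth with a window of 0.05, in R 4.3.3. Groups came from the sample labels. The test was limma 3.58.1 (lmFit, eBayes) with all 3 groups in the same model and Benjamini-Hochberg adjusted p-values over 32726 probes. The procedure was tested on simulated data, with 50 of the 32726 probes given a change of each size and most probes none. Of simulated log2 changes of 0.4, 32% passed the adjusted p by genotype and 52% with diet. Of those of 0.5, 62% and 64% passed, and of those of 1, 96% in both comparisons. Of the unchanged probes, 4 passed by genotype and 12 with diet. Both simulations had the same design, so gaps between them come from the random draw. Far fewer probes were changed than passed in the real diet comparison, so the shares do not carry over to it. Between 56.3% and 62.3% of spots were well above background on an array, 0 were saturated, and the standard error of the log2 fold changes had a median of 0.105. The precision is limited by the number of arrays. Arrays of the same group correlated at 0.987 to 0.997. Against the deposited log2 values each array correlated above 0.999, so that table is on the log2 scale and uncentred.

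The 9 genes and all lists were chosen with earlier results of these data known. Named beside them are, of each related list, up to 5 genes with the largest change among those at the adjusted p, the PPAR group in full, *Ppargc1a*, and the 5 genes most correlated with the mean z score of the 9. The single result of 1 gene is not reported here. Symbols matched the RefSeq table of GRCm38.p6 for all 9 genes. Alternatives were other background corrections, scalings, filters, thresholds, blocks and probe summaries, the deposited log2 values, only the groups compared, and each array left out. Other software was data.table (version 1.17.8), Python (3.11.15) and, for plots, matplotlib (3.10.9).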

Additional observations from a re-analysis of the deposited data

Results flagged for a closer look

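For the 9 genes and the other genes named, the array at the end of each group of 6 was compared with its nearest neighbour, and 6 of 107 groups had an array whose gap to the next, as a share of the range, passed Dixon's limit. Chance alone gives about 1 in 20. *Ehhadh* stood at 10.50 in Pgc1α fl/fl WD replicate 5, above the other 5 mice, which reached 10.23. *Abcd3* was at 13.96 in iPgc1α-/- WD replicate 2, below the next at 14.39, and *Pex11a* at 13.24 in Pgc1α fl/fl WD replicate 3, below 13.43. In chow replicate 4, *Fabp1* was at 14.46 against a next value of 15.69 and *Crat* at 10.61 against 11.41. *Fabp1* was also at 17.05 in Pgc1α fl/fl WD replicate 5, above 16.68. Without chow replicate 4 the diet difference of the 9 genes was called in 3, as with it.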

How the results depend on the processing

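*Hsd17b4*, *Acaa1b* and *Scp2* were called higher with diet under every alternative run, and 0 of the 9 genes were called by genotype under any. Dropping the fold change threshold raised the diet count from 3 to 7. Leaving out each array in turn gave 3 to 4 calls and 6 to 7 genes past the adjusted p with diet, and 0 of either by genotype. Over the other settings 5 to 7 genes passed the adjusted p with diet. *Abcd3* also lost its place with no filter (adjusted p = 0.0557), with only the groups compared (0.0539) and at an adjusted p of 0.01, where *Crot* (0.0102) was lost too. Of the 48 related peroxisomal genes, 7 were called with diet as reported (6 higher and 1 lower), against 1815 of all 21542 tested genes. The count was 12 on background-subtracted signals brought to their 75th percentile and 25 without the fold change threshold. It was 4 with the mean of all probes of a gene and 6 to 10 with arrays left out. The signs that turned belong to differences near 0. With background-subtracted and with median signals brought to their 75th percentile, *Decr2* became 0.12 and 0.079 with diet and -0.046 and -0.036 by genotype, and *Abcd3* became -0.013 and -0.0061 by genotype. With arrays left out, *Pex11a* and *Decr2* ranged from -0.044 to 0.071 and from -0.075 to 0.0040 with diet, and *Abcd3* and *Decr2* from -0.0037 to 0.12 and from -0.0099 to 0.044 by genotype. The cause was not tested.

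The replicate numbers of the labels name no shared litter or day, and same-numbered arrays deviated together only in part (r from -0.13 to 0.28 with diet and from -0.19 to 0.33 by genotype, the closest array being its own number for 3 and 2 of 6). With a replicate block, 3 of the 9 genes were called with diet and 0 by genotype, and *Abcd3* did not pass (adjusted p = 0.0591). Over all genes the block moved the called genes from 1815 to 1828 with diet and from 29 to 25 by genotype.

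With 6 arrays per group the precision is limited, and its relation to signal over background was not tested. The batches that the study's methods correct for are not named in the labels.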
